A study of Homo sapiens with 9 samples.

Results

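The genes described are 42 listed genes of the melanocyte lineage, of MITF regulation and of pigmentation in a list given by symbol. All 42 were measured on the arrays, by 1 probe set each, among 19934 genes tested. The arrays profiled WM793TR, a human melanoma cell line with a BRAF mutation, after 96 h in 100 ng/mL doxycycline, which every group received. The 3 groups were shControl cells, which the labels describe only as having basal TWIST1 and the study's text as carrying a control shRNA, shTWIST1 cells, in which an shRNA lowered TWIST1, and shTWIST1 + TWIST1 cells, which carried the shRNA and also overexpressed TWIST1 from a rescue cDNA under a CMV promoter. By design, the last group differs from shControl by both the shRNA and the cDNA, and from shTWIST1 by the cDNA. Each group had 3 arrays. The labels number them without tying them to cultures, and the methods state only in general that experiments were repeated independently, so the p-values measure the spread between these arrays, which may be partly technical. All cells were of 1 line, and expression driven by a CMV promoter is not set by the gene's own regulation.

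Melanocytes make melanin in melanosomes, which are organelles related to lysosomes. MITF is the central transcription factor of the lineage, SOX10 and PAX3 act upstream of it, and MITF binds E-box sequences in the promoters of pigmentation genes, among them TYR, TYRP1, PMEL and MLANA. In melanoma, a loss of these differentiation genes is known from invasive and dedifferentiated cell states. TWIST1 is a basic helix-loop-helix factor of the neural crest and mesenchyme that also binds E-boxes, so the comparisons ask how its level moves with the expression of melanocyte genes.

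E-boxes of the kind MITF binds are shown in the promoters of 3 of the genes, TYR and TYRP1 because they are the classical pigmentation targets and GPNMB because it was the member of the melanosome group that changed. Each sequence is the 250 bases before the annotated gene start in RefSeq, assembly GRCh38.p14, written 5′ to 3′ along the gene. TYR lies on the plus strand at chr11:89177625-89177874, TYRP1 on the plus strand at chr9:12693135-12693384 and GPNMB on the plus strand at chr7:23246525-23246774. Capitals mark CATGTG on either strand, which reads CACATG where it lies on the opposite strand, and each promoter holds 2.
TYR: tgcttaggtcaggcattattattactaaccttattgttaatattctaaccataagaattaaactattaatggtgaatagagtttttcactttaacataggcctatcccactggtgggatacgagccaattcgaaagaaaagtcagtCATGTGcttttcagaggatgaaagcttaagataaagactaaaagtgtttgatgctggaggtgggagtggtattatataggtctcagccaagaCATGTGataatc
TYRP1: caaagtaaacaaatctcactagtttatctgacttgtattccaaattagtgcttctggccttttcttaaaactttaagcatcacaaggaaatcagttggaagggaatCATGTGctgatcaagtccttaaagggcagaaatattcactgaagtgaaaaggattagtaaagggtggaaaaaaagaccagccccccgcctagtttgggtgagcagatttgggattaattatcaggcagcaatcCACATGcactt
GPNMB: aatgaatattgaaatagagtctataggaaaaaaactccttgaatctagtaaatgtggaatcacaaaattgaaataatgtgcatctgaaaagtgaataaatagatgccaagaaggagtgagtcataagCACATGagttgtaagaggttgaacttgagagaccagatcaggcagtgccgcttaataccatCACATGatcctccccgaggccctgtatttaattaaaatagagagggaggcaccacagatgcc
Counted back from the gene start, the sites span bases -104 to -99 and -12 to -7 in TYR, -144 to -139 and -11 to -6 in TYRP1, and -123 to -118 and -62 to -57 in GPNMB.

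Of the 42 genes, 35 had a promoter in the RefSeq table. CATGTG was found on either strand in 10 of these 35 windows, or 28.6%, against 9.54% of the 27305 promoters of the same length in the table. The 10 genes were TYR, TYRP1, GPNMB, OCA2, SLC24A5, TRPM1, MC1R, EDNRB, GPR143 and BCL2A1. The longer TCATGTG, which contains CATGTG, was found in 17.1% of the members' windows and 2.58% of all. The general E-box CANNTG, which includes the motifs above, was found in 51.4% of the members' windows and 62.2% of all, and CACGTG in 5.71% and 6.49%. The list was chosen to hold MITF targets and pigmentation genes, so its higher share of CATGTG was favoured by that choice. Matches are a description of these letters. They name no bound site, and each motif was searched on both strands.

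TWIST1 itself was checked first, on the log2 scale that all levels below share. Its level was 6.77, 7.10 and 7.15 on the shControl arrays, 6.18, 6.22 and 6.28 on the shTWIST1 arrays, and 8.75, 8.90 and 8.27 on the shTWIST1 + TWIST1 arrays. The groups did not overlap and lay in the order of their labels. In limma, the drop of 0.78 in shTWIST1 did not pass (adjusted p = 0.293), whereas the rise of 1.63 ± 0.16 (SE) in shTWIST1 + TWIST1 over shControl and of 2.41 ± 0.16 over shTWIST1 did (adjusted p = 0.00199 and 0.000291). The labelled knockdown was thus a log2 difference below 1 on these arrays, and most of the range of TWIST1 came from the overexpressing cells. Array medians lay between 4.72 and 4.78, and the correlation between arrays between 0.975 and 0.994. Genes of chromosome Y also differed between groups. In shTWIST1 against shControl 7 of 31 were lower, or 22.6%, beside 0.0602% of all genes, and they were 7 of the 13 genes that passed there. In shTWIST1 + TWIST1, 7 of 31 were higher than in shControl and 11 of 31 higher than in shTWIST1, beside 1.08% and 1.65% of all genes. The lowest log2 change of all genes with the knockdown, -4.42, and the highest against shTWIST1, 5.08, lay on this chromosome. The part of these genes in the results below was not tested.

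The pigment genes proper stood at the bottom of the range in every group. As a rough reference for genes that melanoma cells are not known to use, the 95th percentile of the mean levels of 346 olfactory receptor genes was 3.27, and 14 of the 42 members had all 3 group means below it. These were PMEL, MLANA, TYR, TYRP1, OCA2, SLC45A2, SLC24A4, TRPM1, KIT, PLXNC1, GPM6B, TFAP2B, PPARGC1A and CAPN3. The other 28 had at least 1 group mean above it. RAB38, a small GTPase of melanosome biogenesis, was the nearest of these, with means of 3.15 and 3.14 below the reference in shControl and shTWIST1 + TWIST1 and of 3.37 above it in shTWIST1. The nearest of the 14 was GPM6B, with 3.22 ± 0.53 (SD, n = 3) in shControl from arrays at 3.83, 2.94 and 2.89. Over all genes, 14114 of 19934 had at least 1 group mean at or above the reference, beside 28 of the 42 members. The reference is not a detection call, and a gene under it may still be expressed at a low level.

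**Figure D1:**
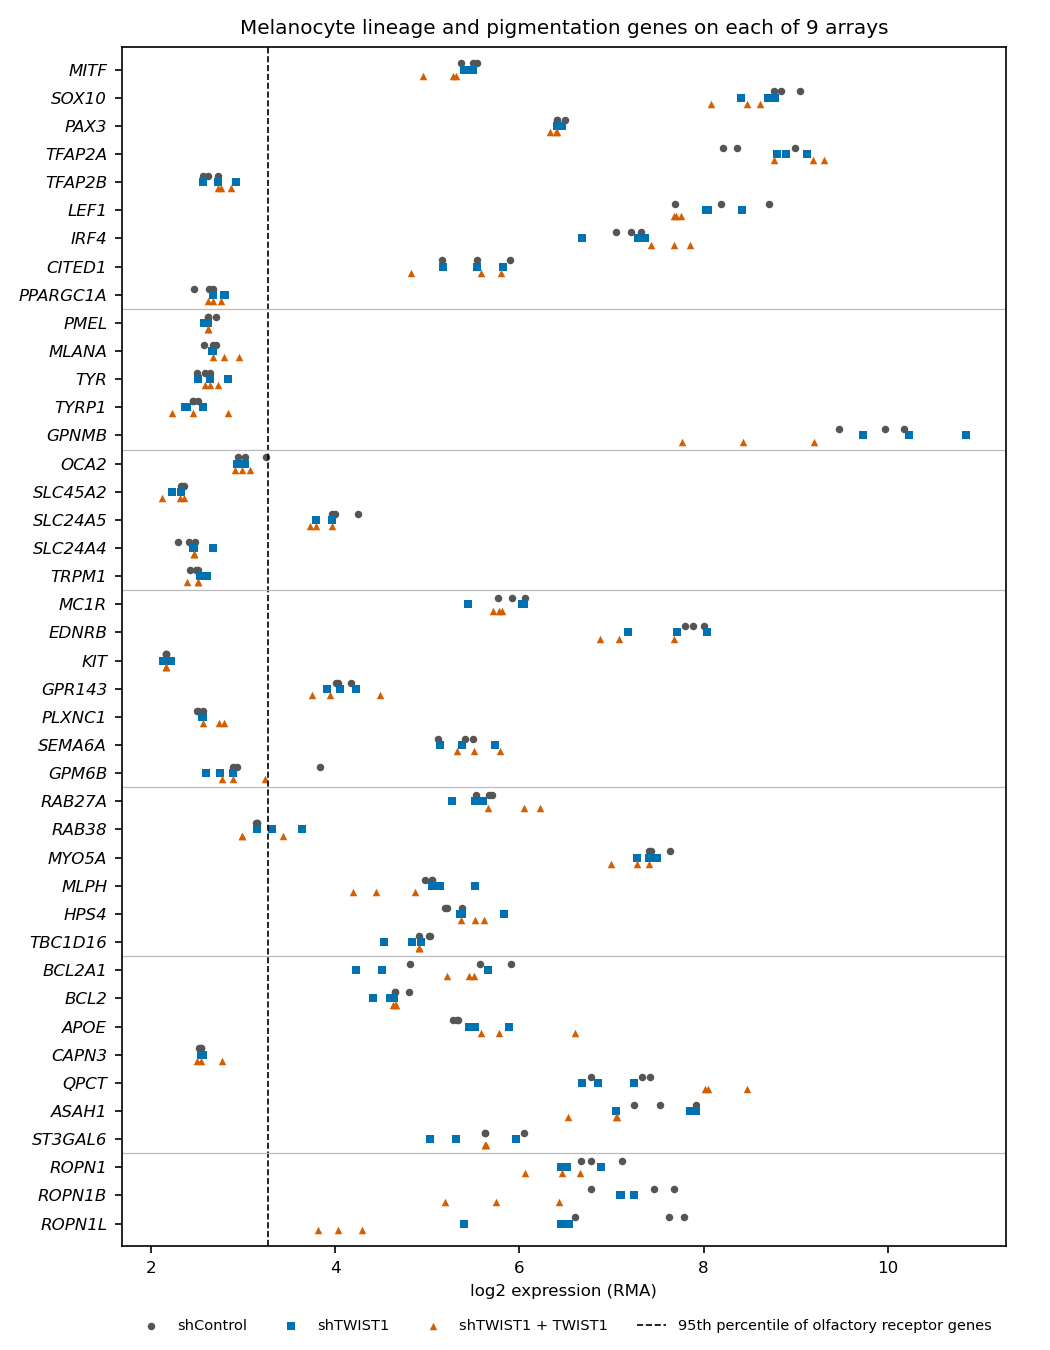
Level of each of the 42 genes on the log2 scale, 1 point per array, coloured by group and ordered by role with grey lines between the roles, with the olfactory receptor reference of 3.27 drawn as a line. PMEL, MLANA, TYR and TYRP1 lie left of the line on every array, whereas SOX10 and GPNMB lie near the top of the range.

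SOX10 and PAX3, which specify the lineage, were well above the reference although the genes of melanin synthesis were not. SOX10 stood at 9.05, 8.76 and 8.83 in shControl, 8.77, 8.41 and 8.70 in shTWIST1, and 8.46, 8.62 and 8.07 in shTWIST1 + TWIST1. All 3 overexpressing arrays were below all 3 shControl arrays, while the shTWIST1 arrays overlapped with both. Its log2 change between those 2 groups was -0.50 ± 0.16 (SE), which did not pass in limma (adjusted p = 0.182). In RNA of whole cultures, fewer cells that express a gene and less of its RNA per cell cannot be told apart.

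MITF was lower with TWIST1 overexpression by a small margin that did not pass either. Its level was 5.37, 5.54 and 5.49 in shControl, 5.48, 5.49 and 5.40 in shTWIST1, and 4.95, 5.28 and 5.32 in shTWIST1 + TWIST1. The overexpressing arrays lay below every other array, and the 2 remaining groups overlapped. The log2 change was -0.28 (95% interval -0.52 to -0.04, adjusted p = 0.259) against shControl and -0.27 (-0.51 to -0.03, adjusted p = 0.231) against shTWIST1. With the knockdown the change was -0.01 (-0.25 to 0.23), so a change of more than about 0.25 in either direction lay outside the interval. MITF has several promoters, and 1 probe set per gene cannot separate the melanocyte isoform from the others.

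PAX3 was the steadiest of the lineage factors. Its arrays read 6.50, 6.41 and 6.41 in shControl, 6.41, 6.46 and 6.47 in shTWIST1, and 6.41, 6.40 and 6.33 in shTWIST1 + TWIST1, and the groups overlapped. The widest of its 3 log2 changes was -0.07, with an interval of -0.21 to 0.08.

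Of the other 6 transcription factors, none passed in any comparison without the replicate block. TFAP2A, an AP-2 factor of the neural crest and the melanocyte lineage, had the largest difference in the group. It read 8.99, 8.21 and 8.36 in shControl, 9.12, 8.89 and 8.80 in shTWIST1, and 9.30, 9.19 and 8.76 in shTWIST1 + TWIST1. The groups overlapped, and the log2 change in the last against the first was 0.56 ± 0.22 (SE, limma adjusted p = 0.283). IRF4, which acts with MITF on TYR, stood at 7.68, 7.86 and 7.43 in the overexpressing cells and at 7.36 or below in all other arrays, a log2 change of 0.54 against shTWIST1 (limma adjusted p = 0.187, and 0.0338 with the replicate block). LEF1, the nuclear partner of beta-catenin, was tightly grouped with TWIST1 overexpression at 7.76, 7.68 and 7.70 and was spread from 7.69 to 8.70 in shControl. CITED1, a transcriptional coactivator, differed by at most 0.13 in size, and TFAP2B and PPARGC1A, the AP-2 beta factor and a coactivator of mitochondrial genes, were below the reference.

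Of the 5 genes of melanin synthesis and the melanosome matrix, 4 were below the reference and GPNMB was far above it. PMEL, which forms the fibrils of the melanosome, read 2.62, 2.71 and 2.62 in shControl, 2.62, 2.58 and 2.62 in shTWIST1, and 2.62 on all 3 arrays of shTWIST1 + TWIST1. MLANA, a melanosomal membrane protein, read 2.58, 2.71 and 2.68, then 2.68, 2.66 and 2.68, then 2.80, 2.68 and 2.95 in the same order of groups. Neither moved beyond the spread between arrays. TYR, the tyrosinase that starts melanin synthesis, read 2.59, 2.64 and 2.51 in shControl, 2.83, 2.51 and 2.64 in shTWIST1, and 2.73, 2.59 and 2.65 in shTWIST1 + TWIST1. TYRP1, its relative that acts later in the pathway, read 2.46, 2.51 and 2.46, then 2.37, 2.56 and 2.39, then 2.23, 2.84 and 2.46. The groups overlapped for both, and the 12 log2 changes of these 4 genes lay between -0.04 and 0.15. At levels this low, a change of the underlying RNA may not be visible on the arrays.

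GPNMB, a transmembrane glycoprotein of melanosomes and lysosomes, was the exception in that group. It stood at 9.97, 10.18 and 9.47 in shControl, 10.23, 10.84 and 9.73 in shTWIST1, and 8.43, 9.19 and 7.76 in shTWIST1 + TWIST1. Every array with TWIST1 overexpression was below every other array. Against shTWIST1 the level was 3.50-fold lower, a log2 change of -1.81 ± 0.39 (SE), and passed narrowly in limma (adjusted p = 0.0479). Against shControl the change was -1.41 (95% interval -2.31 to -0.51) and did not pass (adjusted p = 0.13). The arrays of the same replicate number differed by -1.80, -1.65 and -1.97 between shTWIST1 + TWIST1 and shTWIST1. With the replicate block, GPNMB passed against shTWIST1 with an SE of 0.14 (limma adjusted p = 0.00107). It also passed against shControl (0.00357), although arrays of shTWIST1 + TWIST1 and shControl were not taken as paired. Without the block, the call against shTWIST1 lay near the threshold. Leaving out 1 array ended it for 8 of the 9, with limma adjusted p from 0.0217 to 0.134 and log2 changes from -2.17 to -1.46. Among the 8 were all 3 shControl arrays, which enter this comparison only through the pooled spread. The call was kept only without replicate 2 of shTWIST1 + TWIST1.

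**Figure D2:**
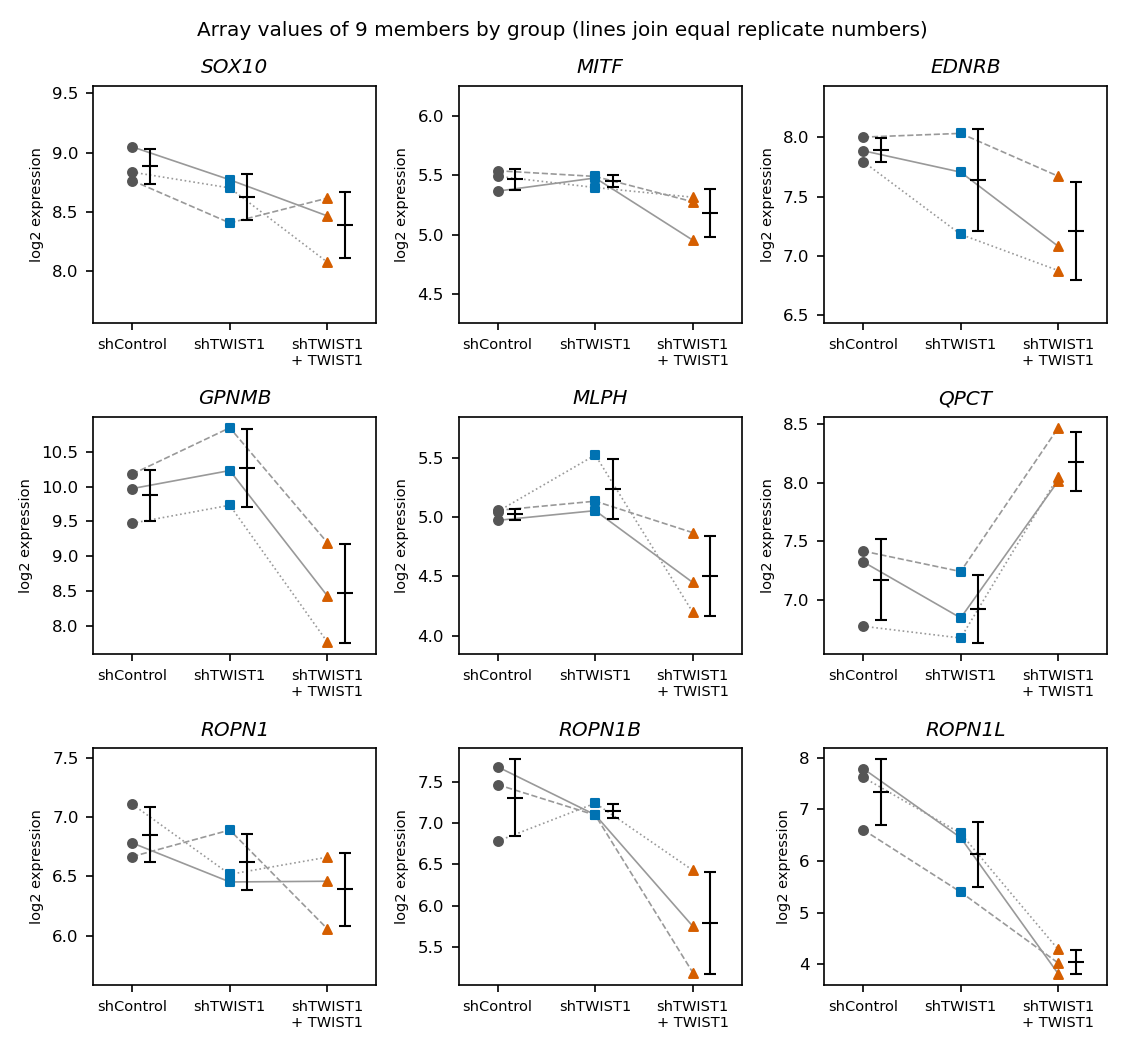
Level on each array (vertical axes, log2 scale) by group for 9 members, with points for single arrays, grey lines joining arrays of the same replicate number, and black bars for the group mean and SD (n = 3). The overexpressing arrays of ROPN1L lie between 3.82 and 4.29, below all other arrays, and those of QPCT lie between 8.01 and 8.47, above all others.

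None of the 5 genes of melanosomal ion transport passed in any comparison. OCA2, SLC45A2, SLC24A4 and TRPM1, which encode channels and exchangers of melanosomes or melanocytes, were below the reference. SLC24A5, a cation exchanger that is a major gene of human skin colour, read 3.97, 4.0 and 4.25 in shControl, 3.80, 3.97 and 3.97 in shTWIST1, and 3.73, 3.80 and 3.97 in shTWIST1 + TWIST1. The groups overlapped, and its largest log2 change was -0.24 ± 0.10 in shTWIST1 + TWIST1 against shControl (limma adjusted p = 0.343).

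None of the 7 cell surface receptors and related proteins passed without the replicate block either. EDNRB, the endothelin receptor that guides melanoblasts, was the member with the largest change among them. It read 7.89, 8.0 and 7.80 in shControl, 7.71, 8.03 and 7.18 in shTWIST1, and 7.08, 7.67 and 6.88 in shTWIST1 + TWIST1. The overexpressing arrays lay below the shControl arrays and overlapped with the shTWIST1 arrays. The log2 change against shControl was -0.69 ± 0.25 (limma adjusted p = 0.248). With the replicate block the adjusted p of EDNRB was 0.0477, although arrays of shTWIST1 + TWIST1 and shControl were not taken as paired. MC1R, the melanocortin receptor that raises cyclic AMP and MITF, had means of 5.92, 5.84 and 5.77, and GPR143, a receptor of the melanosome membrane, means of 4.07, 4.06 and 4.06. KIT, the receptor for stem cell factor, was at 2.17, 2.18 and 2.17, below the reference. SEMA6A, a semaphorin, differed by at most 0.20, and PLXNC1, a semaphorin receptor, and GPM6B, a membrane protein of the proteolipid family, were below the reference.

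Genes of melanosome biogenesis and transport did not pass, with values of opposite sign within 1 transport complex. RAB27A, MLPH and MYO5A form the complex that ties melanosomes to actin, as the GTPase, the linker and the motor. MLPH read 4.97, 5.06 and 5.05 in shControl, 5.05, 5.13 and 5.52 in shTWIST1, and 4.45, 4.87 and 4.20 in shTWIST1 + TWIST1, with the overexpressing arrays below all others. RAB27A read 5.70, 5.67 and 5.53, then 5.26, 5.61 and 5.52, then 6.05, 5.66 and 6.22, with the last group above the shTWIST1 arrays and overlapping with the shControl arrays. The log2 change against shTWIST1 was -0.73 ± 0.18 for MLPH (limma adjusted p = 0.0692), 0.51 ± 0.15 for RAB27A (adjusted p = 0.122) and -0.16 ± 0.12 for MYO5A (adjusted p = 0.549). RAB38, HPS4, which is part of a complex that activates RAB38, and TBC1D16, a GTPase-activating protein for Rab proteins, differed by at most 0.26 in any comparison.

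QPCT was the only member that passed as higher in the fit of all 9 arrays with no block or weights. It encodes glutaminyl-peptide cyclotransferase, which forms the pyroglutamate end of some peptides. Its level was 7.33, 7.42 and 6.78 in shControl, 6.85, 7.24 and 6.68 in shTWIST1, and 8.01, 8.47 and 8.05 in shTWIST1 + TWIST1. The overexpressing arrays stood above all others. The level was 2.38-fold higher than in shTWIST1, a log2 change of 1.25 ± 0.21 (SE) that passed in limma (adjusted p = 0.0185), and the log2 change of 1.0 against shControl (95% interval 0.51 to 1.49) did not pass (adjusted p = 0.0513). It did pass against shControl with array weights (0.0485), quantile normalization (0.0486), a trended and robust prior (0.0477) and without dim genes (0.0343). In the comparison with shTWIST1 it no longer passed without replicate 1 of shTWIST1 (1.22, adjusted p = 0.0812) and without replicate 3 of shTWIST1 (1.13, adjusted p = 0.0693).

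The other 6 genes of survival, lipid and protein processing did not pass without the replicate block. ASAH1, the acid ceramidase of lysosomes, read 7.92, 7.53 and 7.24 in shControl, 7.92, 7.85 and 7.05 in shTWIST1, and 7.05, 7.06 and 6.53 in shTWIST1 + TWIST1, for a log2 change of -0.73 ± 0.27 against shTWIST1 (limma adjusted p = 0.213, and 0.0179 with the replicate block). The arrays of the same number differed by -0.87, -0.80 and -0.53. APOE, a lipid carrier secreted by melanoma cells, read 5.32, 5.28 and 5.34, then 5.52, 5.46 and 5.88, then 5.59, 6.60 and 5.78, so that both altered groups lay above shControl and overlapped with each other (log2 change 0.67 ± 0.24 for shTWIST1 + TWIST1 against shControl, adjusted p = 0.24). BCL2A1, an antiapoptotic relative of BCL2 and a known MITF target, varied most between arrays, from 4.23 to 5.66 within shTWIST1. BCL2 itself and ST3GAL6, a sialyltransferase, differed by at most 0.33 in any comparison, and CAPN3, a calpain protease, was below the reference.

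The largest change among the 42 genes was in the ropporin family. Ropporins are proteins of the sperm tail that bind A-kinase anchoring proteins, and ROPN1 and ROPN1B are also known from melanoma as cancer-testis antigens. Promoters of the 3 genes are shown because ROPN1 and ROPN1B are near copies of each other and ROPN1L is not. In RefSeq GRCh38.p14, the 250 bases before the start lie at chr3:123992125-123992374 on the minus strand for ROPN1, at chr3:125968928-125969177 on the plus strand for ROPN1B and at chr5:10441629-10441878 on the plus strand for ROPN1L. Capitals mark the identical run of 230 bases that the windows of ROPN1 and ROPN1B share.
ROPN1: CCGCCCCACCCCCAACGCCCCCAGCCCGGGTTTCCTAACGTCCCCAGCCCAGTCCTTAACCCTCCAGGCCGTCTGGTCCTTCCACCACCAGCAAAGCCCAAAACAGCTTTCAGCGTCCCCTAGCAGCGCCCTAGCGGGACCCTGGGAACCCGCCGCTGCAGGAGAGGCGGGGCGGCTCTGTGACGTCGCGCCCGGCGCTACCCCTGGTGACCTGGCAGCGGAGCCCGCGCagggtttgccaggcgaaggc
ROPN1B: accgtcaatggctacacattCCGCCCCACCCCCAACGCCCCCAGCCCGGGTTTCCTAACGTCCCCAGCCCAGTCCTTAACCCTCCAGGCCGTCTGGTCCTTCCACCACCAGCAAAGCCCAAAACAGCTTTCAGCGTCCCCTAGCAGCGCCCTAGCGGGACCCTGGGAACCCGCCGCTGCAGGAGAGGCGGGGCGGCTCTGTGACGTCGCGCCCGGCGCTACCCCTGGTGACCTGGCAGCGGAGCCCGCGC
ROPN1L: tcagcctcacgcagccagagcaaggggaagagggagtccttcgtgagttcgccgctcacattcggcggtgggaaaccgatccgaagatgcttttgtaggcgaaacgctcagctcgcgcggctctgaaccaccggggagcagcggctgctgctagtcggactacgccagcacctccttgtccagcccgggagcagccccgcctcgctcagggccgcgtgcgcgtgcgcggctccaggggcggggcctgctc
None of the 3 windows holds CANNTG, which says only that these letters are not in them.

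ROPN1L was lower in shTWIST1 + TWIST1 than in either other group by more than any other member. Its level was 7.79, 6.61 and 7.62 in shControl, 6.45, 5.40 and 6.54 in shTWIST1, and 3.82, 4.03 and 4.29 in shTWIST1 + TWIST1. No groups overlapped, and shTWIST1 lay between the others, below shControl. Against shControl it was 9.82-fold lower in the overexpressing cells, a log2 change of -3.30 ± 0.38 (SE) that passed in limma (adjusted p = 0.00381) and was the 6th lowest among all 19934 genes. Against shTWIST1 it was 4.24-fold lower, a log2 change of -2.09 ± 0.38 (adjusted p = 0.0233). With the knockdown the change was -1.21 (95% interval -2.07 to -0.35), lower in 3 of 3 arrays of the same number by 1.34, 1.21 and 1.08, but it did not pass (adjusted p = 0.575). In these values, both the group with less TWIST1 and the group with more stood below shControl. The change of -3.30 against shControl covers the shRNA and the cDNA together. The call against shControl was kept without each array in turn (adjusted p from 0.00296 to 0.0221). Against shTWIST1 it no longer passed without replicate 1 or 3 of shTWIST1 (log2 change -1.92 and -1.88, adjusted p = 0.0972 and 0.0842) and without replicate 1 or 3 of shTWIST1 + TWIST1 (-1.97 and -2.21, adjusted p = 0.0813 and 0.0559).

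ROPN1B fell as well, with a narrower margin. It stood at 7.68, 7.47 and 6.78 in shControl, 7.10, 7.10 and 7.24 in shTWIST1, and 5.75, 5.19 and 6.43 in shTWIST1 + TWIST1. The overexpressing arrays were below all others, with replicate 3 the nearest to them. The level was 2.87-fold lower than in shControl, a log2 change of -1.52 ± 0.32 (SE) that passed in limma (adjusted p = 0.0479), and the change of -1.36 against shTWIST1 did not (adjusted p = 0.0602). Without single arrays the adjusted p against shControl ran from 0.0247 to 0.17 and the log2 change from -1.84 to -1.22, and the call was kept only without replicate 3 of shControl or replicate 3 of shTWIST1 + TWIST1.

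ROPN1 had smaller differences than its near copy. It read 6.78, 6.67 and 7.11 in shControl, 6.45, 6.89 and 6.52 in shTWIST1, and 6.46, 6.06 and 6.66 in shTWIST1 + TWIST1. The overexpressing arrays were all just below the shControl arrays, and the log2 change of -0.46 (95% interval -0.89 to -0.03) did not pass (limma adjusted p = 0.313). Probes of such similar genes may take up RNA of both, which was not tested, nor was the difference between their changes.

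**Figure D3:**
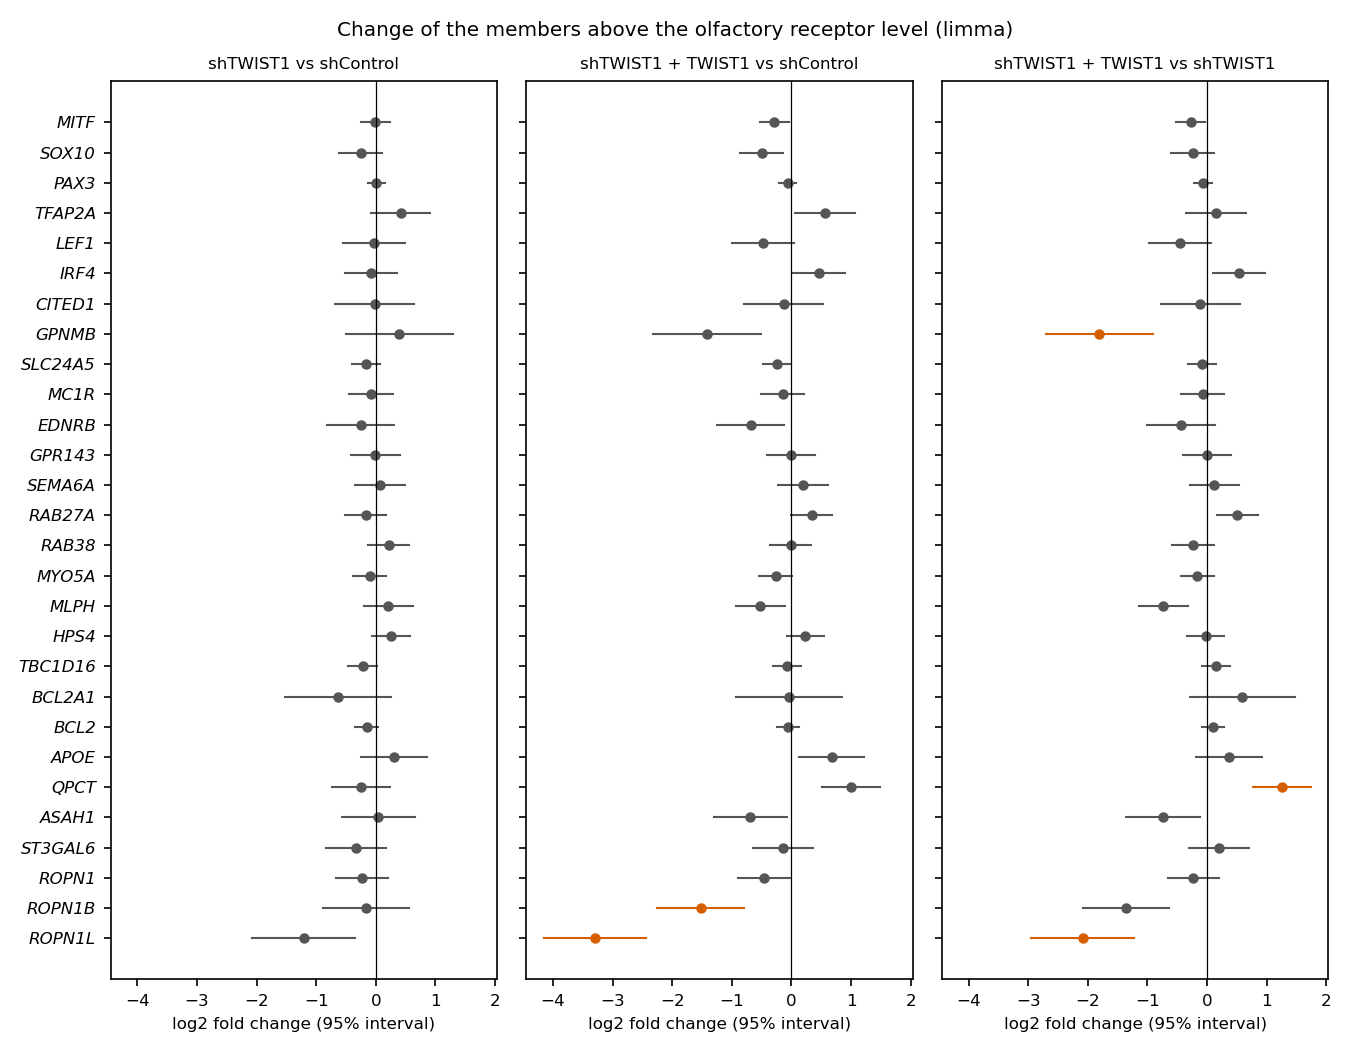
Log2 fold change with its 95% interval in the 3 comparisons for the 28 members with at least 1 group mean above the olfactory receptor reference, ordered by role, in orange where the member passed in limma and in grey where it did not. No member passed with the knockdown, ROPN1L and ROPN1B were lower in shTWIST1 + TWIST1 than in shControl, and GPNMB and ROPN1L were lower and QPCT higher than in shTWIST1.

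Counted over the whole list, few members passed in any comparison. With the knockdown 0 of 42 passed, beside 0.0652% of all genes (13 of 19934), and 1 of 42 had an unadjusted p under 0.05 in limma, which was ROPN1L, against 1320 of all genes. In shTWIST1 + TWIST1 against shControl 2 of 42 passed, or 4.76%, beside 2.62% of all genes, and both were lower, beside 1.55% of all genes. Against shTWIST1 3 of 42 passed, or 7.14%, beside 3.42% of all genes, with 1 higher and 2 lower beside 1.65% and 1.77%. These shares rest on 2 and 3 genes.

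The median log2 change of the 42 genes was -0.03, -0.05 and -0.02 in the 3 comparisons in this order, beside 0.02, 0.02 and 0.01 over all genes. Against shControl, 9 members lay lower without overlap in shTWIST1 + TWIST1 and 3 higher. The lower ones were SOX10, MITF, GPNMB, EDNRB, MLPH, ASAH1 and the 3 ropporins, and the higher ones IRF4, APOE and QPCT. Over all genes, 8.15% lay lower and 10.4% higher in this way. Against shTWIST1, 7 members lay lower and 3 higher, beside 8.86% and 9.77% of all genes. The lower ones were MITF, LEF1, GPNMB, TRPM1, MLPH, ROPN1B and ROPN1L, and the higher ones IRF4, RAB27A and QPCT. These 2 comparisons share the overexpressing arrays, so that their counts are not independent of each other.

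Arrays of the same replicate number deviated together in shTWIST1 + TWIST1 and shTWIST1, and with the number as a block 5 of 42 members passed in that comparison, beside 5.40% of all genes. They were GPNMB (adjusted p = 0.00107), QPCT (0.0026) and ROPN1L (0.00701), and also IRF4, higher (0.0338), and ASAH1, lower (0.0179), in limma. With the knockdown, 0 members passed with the block as well.

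Of the 28 members above the reference, many were measured too loosely to bound a modest change. With the knockdown, the 95% interval lay within a log2 change of 0.5 in either direction for 9 of the 28 and within 1 for 25. In shTWIST1 + TWIST1, of the members above the reference that did not pass, it lay within 1 for 19 of 26 against shControl and for 21 of 25 against shTWIST1.

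**Figure D4:**
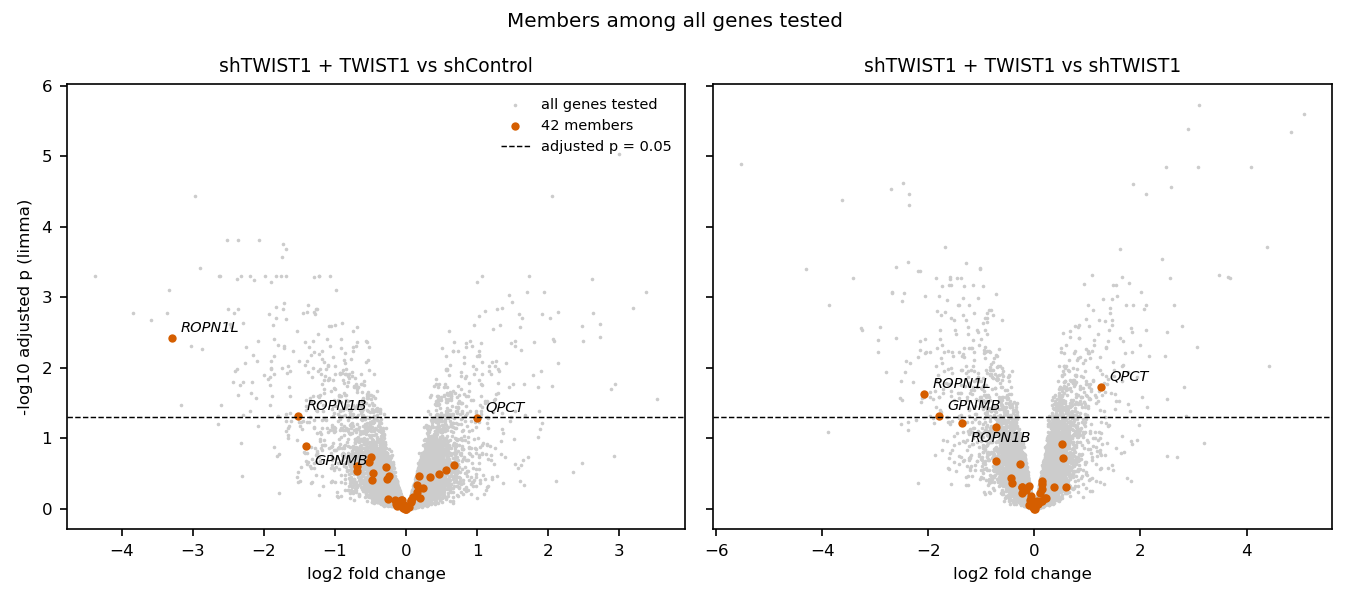
Log2 fold change (horizontal axis) against -log10 of the adjusted p in limma (vertical axis) for all 19934 genes in grey and the 42 members in orange, in shTWIST1 + TWIST1 against shControl (left) and against shTWIST1 (right), with a dashed line at an adjusted p of 0.05. Most members lie among the bulk of genes near 0, and ROPN1L is the member farthest to the left in both panels.

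Genes next to these in the same pathways were read from 4 lists. Among MITF relatives and further MITF targets, 25 of 28 were measured. SLC7A5, an amino acid transporter, rose in shTWIST1 + TWIST1 against shControl (log2 change 0.83, limma adjusted p = 0.014), and CTSK, the protease cathepsin K, rose against shTWIST1 (1.68, adjusted p = 0.00413) where TNFRSF14, a receptor of the TNF family, fell (-0.42, adjusted p = 0.0326). Among the complexes of melanosome biogenesis, 34 of 36 were measured, and HPS5, a subunit of BLOC-2, fell by 0.84 against both groups (adjusted p = 0.0122 against shControl and 0.0108 against shTWIST1). SYTL2, a RAB27A effector, fell by 0.93 against shTWIST1 (adjusted p = 0.0361). Against shControl, 4% of the measured MITF list and 2.94% of the biogenesis list passed, beside 2.62% of all genes. Against shTWIST1 the shares were 8% and 5.88%, beside 3.42% of all genes. No gene of the 4 lists passed with the knockdown.

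Of the MC1R, KIT and endothelin pathways, 29 of 30 genes were measured, and 6.90% of these passed against shControl, beside 2.62% of all genes. PDE4B, which degrades cyclic AMP, rose by 1.05 (limma adjusted p = 0.0414) and CREB3L2, a transcription factor of the CREB3 family, fell by 0.43 (adjusted p = 0.0381) in shTWIST1 + TWIST1 against shControl, and none passed against shTWIST1. Of the neural crest and Schwann cell genes, 21 of 24 were measured, with 2 higher and 2 lower against shControl and 1 higher and 2 lower against shTWIST1. These were 19.0% and 14.3% of the 21, beside 2.62% and 3.42% of all genes. S100B, the calcium-binding protein used as a melanoma marker, read 10.85, 10.31 and 10.34 in shControl, 10.03, 9.77 and 9.86 in shTWIST1, and 8.31, 7.80 and 8.25 in shTWIST1 + TWIST1. ERBB3, a neuregulin receptor, read 8.79, 8.99 and 8.85, then 9.11, 9.39 and 8.88, then 6.80, 6.98 and 6.44. Both genes were lower on the overexpressing arrays than on any other array, with log2 changes of -2.38 and -2.14 against shControl (adjusted p = 0.000543 and 0.000572) and of -1.77 and -2.39 against shTWIST1 (adjusted p = 0.00177 and 0.000314). MSX2, a homeobox factor of the neural crest, rose by 1.78 against shControl and by 1.65 against shTWIST1 (adjusted p = 0.0128 and 0.0156), and its relative MSX1 by 0.69 against shControl (adjusted p = 0.0231).

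Markers of other cell types were read beside these results. The melanocyte markers, 8 of 9 of which were measured and 4 of which were below the reference, had a mean level of 5.17 to 5.25 on the shControl arrays, 5.06 to 5.15 on the shTWIST1 arrays and 4.81 to 4.85 on the shTWIST1 + TWIST1 arrays. Without S100B, the means were 4.43 to 4.47, 4.38 to 4.45 and 4.32 to 4.43 in the same order, which overlap, so that most of the difference lay in S100B. SOX10, PAX3, MITF and S100B were above the reference in every group, and PMEL, MLANA, TYR and TYRP1 were below it. This split does not identify the line, since COL1A1, COL3A1, LUM, PDGFRA, THY1 and FAP, which are fibroblast markers, were also above the reference in every group. DCN was above it only in shTWIST1 + TWIST1 and COL1A2 only in shTWIST1. The 8 fibroblast markers, each with at least 1 group mean above the reference, had a mean of 5.08 to 5.29, 4.81 to 5.04 and 5.49 to 6.24 in the same order. Without DCN, which read 6.68 on 1 overexpressing array and 3.50 and 3.26 on the others, the means were 5.40 to 5.60, 5.08 to 5.31 and 5.78 to 6.18. Of the 8, only PDGFRA rose against both groups and COL3A1 against shTWIST1, and the others did not pass, with log2 changes of opposite sign such as 1.71 for LUM and -0.76 for THY1 against shControl. Their part in the members' changes was not tested. Of the keratinocyte, endothelial and leukocyte markers, 4 of 7, 5 of 7 and 5 of 7 were below the reference, and of these 3 lists only LCP1, a leukocyte marker, changed, which fell against shTWIST1.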

How the data were processed

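Total RNA of 9 samples was amplified with a whole-transcriptome kit, labelled with biotin and hybridized to single-colour arrays. The authors deposited log2 expression values made with RMA, which corrects background, applies quantile normalization and summarizes probes by median polish. Its version, the array and the chip definition are not given in the sources used here, and the number of arrays limits the precision. Of 20673 probe sets, 738 carried no gene symbol and were left out. The highest mean was kept where 2 shared a gene, which left 19934 genes.

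Groups followed the labels, and the name shControl for the basal group follows the study's text. All 9 arrays entered 1 limma fit (limma 3.58.1, R 4.3.3) with Benjamini-Hochberg adjustment over all genes and a threshold of 0.05. In limma, SE denotes the moderated standard error. The 42 members, the related lists and the marker lists were chosen with earlier results of these data known. Array values are given for members that passed, for MITF, SOX10, PAX3, PMEL, MLANA, TYR and TYRP1, and for those with the largest change in their role group. MLPH, RAB27A, ASAH1, APOE, IRF4, ROPN1, S100B and ERBB3 were added after their values were seen. From each related list, up to 3 genes per direction are named. Genes of chromosome Y are counted and not named.

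The replicate numbers in the labels were checked before any blocked fit. Deviations from the group means correlated between same-numbered arrays at 0.29 to 0.51 for shTWIST1 with shControl and 0.14 to 0.30 for shTWIST1 + TWIST1 with shTWIST1, which were taken as paired. For shTWIST1 + TWIST1 with shControl they were 0.03 to 0.22 and were not. The fit was tested on simulated data with 200 of 19934 genes changed, and it recovered 29.9% of genes with a log2 change of 0.5 and 80.6% of those with a change of 1 for shTWIST1 + TWIST1 against shControl, and 28.4% and 82.1% against shTWIST1. No change was simulated for the knockdown. Alternatives were another normalization, filter, prior or test, array weights, the block, all probe sets, the 6 arrays compared and leaving out each array. The fits with an array left out had no block. The marker means without S100B and without DCN were added after seeing the data. DCT and the other listed genes that were not measured are not analysed here.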

Additional observations from a re-analysis of the deposited data

How the results depend on the processing

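The count of members that passed was 0 with the knockdown under all 19 alternatives. Against shControl the 2 members of the overexpressing cells became 5 with the replicate block, 3 with quantile normalization, without dim genes or with a trended and robust prior, each by the addition of QPCT, 1 with only the 6 arrays compared and 0 by the methods' t-test, and 1 to 2 with single arrays left out. Against shTWIST1 the 3 became 5 with array weights, by the addition of MLPH (adjusted p = 0.0394 in limma) and RAB27A (0.046), 4 without dim genes, by the addition of ROPN1B (0.0395), 5 with the replicate block and 0 by the methods' t-test, and 0 to 5 with single arrays left out, 0 without replicate 1 or without replicate 3 of shTWIST1. With the block, ROPN1B was no longer called against shControl (adjusted p = 0.0609 in limma) and QPCT, GPNMB, EDNRB and ASAH1 were. Before adjustment, 1, 4 and 4 members and 804, 1588 and 1669 of all genes passed the methods' t-test in the 3 comparisons. Calls were kept under 18 of 19 alternatives for ROPN1L against shControl, 16 for QPCT, 14 for ROPN1L against shTWIST1, 9 for GPNMB and 8 for ROPN1B. The alternatives reuse the same arrays, and the minimum log2 change of 1 could not end these calls, whose changes were already beyond it. Over all genes, the 13 calls of the knockdown became 25 with array weights, 12 with the replicate block, 0 by the t-test (1320 at an unadjusted p under 0.05 in limma) and 8 to 14 with single arrays left out. The 523 calls against shControl became 801 with the replicate block, 260 with the 6 arrays, 3 by the t-test, 242 with a minimum log2 change of 1 and 264 to 523 with single arrays left out. The 682 calls against shTWIST1 became 1076, 353, 2 and 294 under the same settings and 295 to 887 with single arrays left out. The sign was followed for MITF, SOX10, PAX3, PMEL, MLANA, TYR and TYRP1 and for the calls above, not for the other members. Among those followed, changes of sign were seen only in values near 0 of genes that did not pass. With quantile normalization, MLANA became -0.0247 with the knockdown and TYRP1 -0.0110 against shControl. PAX3 with the knockdown became -0.0041 under median centring, and TYRP1 against shControl -0.0473 with array weights. With single arrays left out, the knockdown changes ran from -0.0601 to 0.0259 for MITF, -0.00781 to 0.0353 for PAX3, -0.0223 to 0.0429 for MLANA, -0.00267 to 0.157 for TYR and -0.0931 to 0.00186 for TYRP1. TYRP1 ran from -0.132 to 0.174 against shControl and from -0.0986 to 0.207 against shTWIST1, and TYR from -0.0815 to 0.0779 against shTWIST1. The cause was not tested. Genes at or below the olfactory receptor level limit what a low signal can show.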
